A study of Mus musculus with 39 samples.

Results

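The genes described here are 31 genes of cholesterol and fatty acid synthesis and of its control, out of 55401 genes in the deposited tables. They were chosen by name: the Ensembl identifier of each row, with its version removed, was looked up in the GENCODE M21 annotation of mouse genome build mm10, and all 31 symbols were found. The rule that names them uses no measured value. The genes fall into 4 roles: 7 enzymes from acetyl-CoA through mevalonate to farnesyl diphosphate, 11 enzymes from squalene to cholesterol, 6 regulators or sterol carriers, and 7 enzymes of fatty acid synthesis and desaturation.

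The study measured RNA of cells captured from male mice by way of ACSA-2, a surface marker of astrocytes, using beads, after chronic social defeat stress. In that procedure a mouse meets an aggressor repeatedly and is afterwards called susceptible or resilient from how it behaves towards others. The 39 libraries, each labelled with a mouse number of its own, come from the nucleus accumbens (NAc; 7 control, 8 susceptible and 7 resilient) and from PFC (6 control, 6 susceptible and 5 resilient). The protocol text names NAc tissue for all of them, while 17 are labelled PFC. No strain, age, allele or drug is given, and all groups share the bead capture.

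Astrocytes make much of the cholesterol of the adult brain and pass it to neurons in lipoprotein particles, and oligodendrocytes make large amounts of the same lipids for myelin. The pathway is run by SREBP transcription factors, encoded by Srebf1 and Srebf2, which stay in the endoplasmic reticulum with Scap while Insig1 or Insig2 holds the complex there. When sterols are scarce the complex moves on, the factor is cut free and it binds sterol regulatory elements (SRE) in the promoters of the synthesis genes, commonly beside a CCAAT box bound by NF-Y and a GC box bound by Sp1. Srebf2 is best known for sterol genes and Srebf1 for fatty acid genes.

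RefSeq promoter windows (GRCm38.p6) were matched for 25 of the 31 genes, in 33 windows, and the 250 bases upstream of each start were searched on both strands. Those of 3 members are shown 5′ to 3′ on the gene's strand because Hmgcs1 holds the SRE letters, Srebf1 belongs to a gene pair whose ratio was compared between regions, and Fasn was the closest partner of Srebf1 across libraries. For Srebf1 the first of its 3 windows is shown. Capitals mark the SRE letters TCACNCCAC and the CCAAT box, which reads ATTGG on the opposite strand.
Hmgcs1, chr13:119690101-119690350, plus strand: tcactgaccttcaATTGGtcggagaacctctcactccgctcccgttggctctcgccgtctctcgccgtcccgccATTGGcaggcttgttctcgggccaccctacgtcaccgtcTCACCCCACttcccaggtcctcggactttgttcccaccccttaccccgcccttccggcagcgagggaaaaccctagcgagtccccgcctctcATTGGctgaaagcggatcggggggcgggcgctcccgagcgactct
Srebf1, chr11:60222582-60222831, minus strand: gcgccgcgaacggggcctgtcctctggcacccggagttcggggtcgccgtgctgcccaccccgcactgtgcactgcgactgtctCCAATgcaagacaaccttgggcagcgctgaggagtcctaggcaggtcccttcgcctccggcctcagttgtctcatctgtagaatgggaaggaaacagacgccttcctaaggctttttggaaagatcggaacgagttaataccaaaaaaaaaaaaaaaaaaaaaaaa
Fasn, chr11:120824548-120824797, minus strand: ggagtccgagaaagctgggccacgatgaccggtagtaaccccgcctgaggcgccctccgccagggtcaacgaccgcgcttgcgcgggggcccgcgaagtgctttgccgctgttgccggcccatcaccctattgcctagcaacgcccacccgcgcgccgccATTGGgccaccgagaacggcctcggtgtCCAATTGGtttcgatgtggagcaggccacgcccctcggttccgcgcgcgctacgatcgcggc

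The SRE letters occurred in 1 of the 25 matched members, Hmgcs1, which encodes the HMG-CoA synthase of the sterol branch. They start 137 bases upstream of its start, with CCAAT boxes starting 237, 176 and 45 bases upstream. Fasn held 3 CCAAT boxes, 2 of them overlapping, and the Srebf1 window 1. Of 27025 genes 1.225% held the SRE letters. CCAAT was found in 20 of 25 members (80%), against 37.49% of all these genes, and the GC box letters GGGCGG in 21 of 25 (84%), against 35.36% of genes. The E-box CACGTG was found in 5 of 25 members (20%), against 6.86% of genes. The full cAMP response element TGACGTCA, the site of CREB, was in none of the 25 members and in 1.769% of genes. Its shorter core TGACG, which also lies inside the full element, was in 8 of 25 members (32%) against 19.79% of genes. A match is a description of letters, and the strict spelling used for the SRE leaves out variant sites. The 25 members leave out Fdps, Fdft1, Sqle, Stard4, Scd1 and Scd2, for which no window was matched.

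Libraries held 0.941M to 37.3M assigned counts (M, 1e06 counts; median 11.3M). The implied gene length equalled the whole annotated span, introns included, for 54229 of 54229 genes compared, so the values mix spliced RNA, unspliced RNA and any DNA carried along. As a measure of that cover, the FPKM of 1482 chemosensory receptor genes, which brain cells are not known to use, was taken as a share of the 0.7641 FPKM that perfectly even cover of all genes would give. This background ranged from 13.4% to 80.9%, and 4 PFC libraries were under 30%: control 2, susceptible 1, resilient 1 and resilient 2. All 4 are of replicate 1 or 2. Every PFC library of these replicates had a lower background (at most 43.5%) than any later PFC library (at least 45.9%). The astrocyte marker Aldh1l1 had counts in all libraries (64.3 to 286.8 CPM, the count scaled to an equal library total). So had Mbp of oligodendrocytes (145.2 to 1025 CPM), Cx3cr1 of microglia (60.7 to 124.3 CPM) and Snap25 of neurons (35.5 to 684.9 CPM). None of these markers had a count of 0 in any of the 39 libraries. Their CPM were not set against the receptor level, so the lower values may be partly background. In samples that may mix cell types, fewer cells of a type and less RNA per cell cannot be told apart.

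Levels between genes were compared as FPKM, which divides by length. Scd2, the stearoyl-CoA desaturase that brain cells use most, had by far the highest level of the 31, a mean of 27.9 FPKM over the 39 libraries and a median 57.2 times the receptor level. Next came Fasn, the fatty acid synthase, at 5.48 FPKM and Msmo1, a sterol C4 methyl oxidase, at 4.71 FPKM. Insig1 followed at 4.07, Scd1 at 2.99, Srebf1 at 2.77 and Hmgcs1 at 2.49 FPKM. At the other end were Ebp, a sterol isomerase, at 0.546 FPKM, Mvd at 0.645 and Insig2 at 0.695 FPKM. Ebp had a count of 0 in PFC susceptible 6, the library with the second lowest total. Only 7 members were above 2 times the receptor level in all 39 libraries: Fdft1, Msmo1, Srebf1, Acly, Fasn, Scd1 and Scd2. For Ebp, Mvd and Insig2 that held in 8 libraries each, so most of their cover was close to the background. It held in 11 libraries for Acat2, 14 for Acss2, 14 for Acaca and 15 for Stard4.

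Within the mevalonate enzymes, the mean FPKM over libraries ran from 0.645 for Mvd and 0.755 for Acat2 through 0.98 for Fdps, 1.21 for Mvk, 1.28 for Pmvk and 1.56 for Idi1 to Hmgcs1. Of the squalene and sterol enzymes, Fdft1 (2.15), Sc5d (2.11), Sqle (1.89), Tm7sf2 (1.53), Cyp51 (1.47) and Dhcr7 (1.37 FPKM) followed Msmo1, and Hsd17b7 (1.09), Lss (1.01) and Nsdhl (0.926 FPKM) came before Ebp. Srebf2 had 1.94, Scap 0.934 and Stard4, a carrier that moves sterols between membranes, 0.819 FPKM. Among the fatty acid enzymes, Acly, which makes cytosolic acetyl-CoA from citrate, had 1.55, Elovl6 0.977, Acss2 0.813 and Acaca 0.793 FPKM. The spread between libraries was wide (an SD of 0.755 FPKM for Fdft1 over the 39 libraries), so neighbours in this order such as Fdft1 and Sc5d differed by less than that spread.

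The highest members of each role are shown first by library. Hmgcs1 had a mean of 36.9 ± 17.1 CPM (SD, n = 7) in NAc control, 36.2 ± 13.9 (SD, n = 8) in NAc susceptible and 23.9 ± 12.4 (SD, n = 7) in NAc resilient. Its lowest, median and highest NAc libraries were 24.5, 29.8 and 73.1 CPM in control, 17.0, 31.7 and 61.0 CPM in susceptible and 13.2, 18.0 and 49.1 CPM in resilient. The 3 NAc groups overlapped, with the resilient median lowest.

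In PFC, Hmgcs1 ran from 23.2 through a median of 44.9 to 99.3 CPM in control and from 17.1 through 58.7 to 166 CPM in susceptible. The 5 PFC resilient libraries had 84.2, 174.8, 56.3, 19.8 and 46.9 CPM. The highest value in each PFC group belongs to a library with a background under 30%. Idi1, an isomerase later in the same branch, had lower counts (group means of 7.77 to 16.2 CPM), and its highest PFC control library was control 1.

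Msmo1 in NAc had medians of 54.2 CPM in control, 51.9 in susceptible and 38.6 in resilient, within 38.6 to 129.8, 28.9 to 107.6 and 15.5 to 90.3 CPM. In PFC its medians were 77.4, 126.2 and 106.8 CPM, within 34.8 to 131, 26.2 to 247.2 and 29.8 to 294.6 CPM. Fdft1, squalene synthase, had group medians of 48.8 to 100.8 CPM. For both enzymes all groups overlapped, and the PFC stress groups spread most.

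Insig1, which senses sterols and holds back the SREBP complex, had NAc medians of 19.7 CPM in control, 25.2 in susceptible and 14.8 in resilient. PFC control had a median of 26.6 and PFC susceptible of 41.2 CPM, and the PFC resilient libraries had 59.3, 123.6, 45.2, 14.0 and 30.3 CPM. Srebf1 had a median of 65.3 CPM in NAc control, 59.7 in NAc susceptible and 42.2 in NAc resilient, and of 54.1, 62.8 and 62.9 CPM in the 3 PFC groups in the same order. The highest Srebf1 value of all 39 libraries was NAc resilient 1, at 137.9 CPM.

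Scd2 had medians of 397.1 CPM in NAc control (260.1 to 807.5), 326.5 in NAc susceptible (179.2 to 570.9) and 206.1 in NAc resilient (100.7 to 771.2). In PFC the medians were 266.2 CPM in control (100.7 to 523.4) and 324.9 in susceptible (102.8 to 945.7), and the resilient libraries had 596, 986.5, 483.4, 89.6 and 226.1 CPM. Fasn had NAc medians of 88.8, 82.0 and 51.2 CPM and PFC medians of 80.4, 125.7 and 107.4 CPM for control, susceptible and resilient. In NAc the medians of both genes were lowest in resilient mice, while in PFC that of Scd2 was highest in resilient and that of Fasn in susceptible mice, and the groups overlapped. The NAc resilient libraries other than resilient 1 lay at or under 83.4 CPM for Fasn, while resilient 1 had 224.2 CPM.

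The other 23 members are given by their group means. Among the other mevalonate enzymes, the 6 group means in CPM ran, lowest to highest, as follows: Acat2 11.4 to 18.0, Mvk 16.8 to 22.98, Pmvk 16.6 to 21.7, Mvd 4.94 to 8.51 and Fdps 5.85 to 13.5. Among the other squalene and sterol enzymes, the 6 group means in CPM ran, lowest to highest, as follows: Sqle 21.9 to 50.4, Lss 21.1 to 32.6, Cyp51 25.8 to 54.4, Tm7sf2 7.60 to 10.4, Nsdhl 30.3 to 48.9, Hsd17b7 17.9 to 29.7, Ebp 3.49 to 7.09, Sc5d 19.3 to 39.9 and Dhcr7 27.4 to 45.7. Among the other regulators, the 6 group means in CPM ran, lowest to highest, as follows: Srebf2 90.9 to 155.9, Scap 46.1 to 51.7, Insig2 18.3 to 22.4 and Stard4 8.95 to 17.3. Among the other fatty acid enzymes, the 6 group means in CPM ran, lowest to highest, as follows: Acly 68.1 to 105.9, Acss2 45.5 to 79.3, Acaca 199.3 to 228.8, Elovl6 96.5 to 121.5 and Scd1 33.1 to 51.7. In all of them libraries of different groups overlapped.

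**Figure D1:**
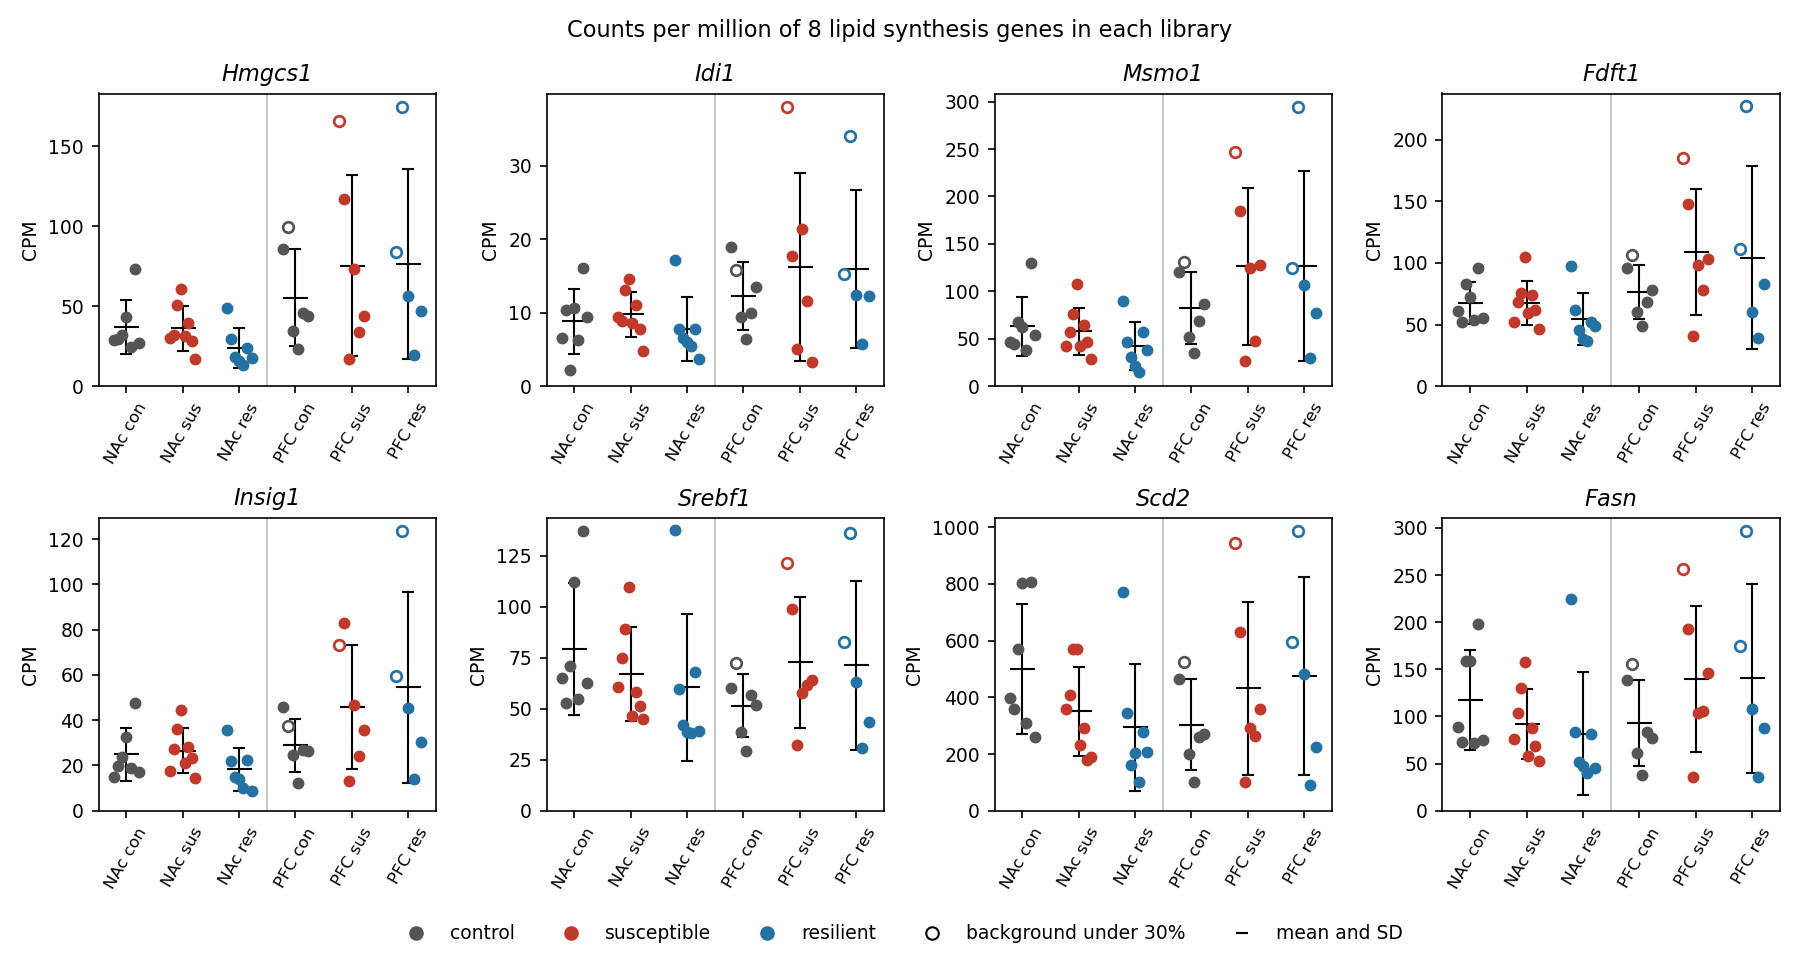
CPM (y axis) of Hmgcs1, Idi1, Msmo1, Fdft1, Insig1, Srebf1, Scd2 and Fasn in each of the 39 libraries, by region and condition (con control, sus susceptible, res resilient), with the group mean and SD. Open circles are the 4 libraries with a background under 30%; in PFC they include the highest value of Scd2 in each group, and the groups overlap for all 8 genes.

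The first comparison in NAc asked which genes differ in susceptible mice, as the study's title names susceptibility. None of the 31 members passed in edgeR's quasi-likelihood test (adjusted p under 0.05 over 35943 genes, 0% of which were called), and none had an unadjusted p under 0.05, which 3.02% of all genes had. DESeq2, limma-voom and limma-trend also called 0 members here and in the other comparisons within a region. Of the members, 18 were higher and 13 lower in susceptible than in control, with a median log2 difference of 0.03 beside -0.001 over all genes tested, of which 49.7% were higher and 50.3% lower. Of genes above 2 times the receptor level 37.2% were higher and 62.8% lower, and 3.67% had such a p. The mevalonate enzymes had a median of 0.08 (6 of 7 higher) and the fatty acid enzymes of -0.08 (4 of 7 lower).

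The smallest unadjusted p-values in that comparison belonged to Pmvk (log2 difference 0.27 ± 0.19 SE), Mvd (0.29 ± 0.21), Tm7sf2 (0.27 ± 0.20) and Scd2 (-0.53 ± 0.40). Mvd had the largest and Scd2 the lowest difference, and the adjusted p was 1 for each after rounding (edgeR, Benjamini-Hochberg). Markers of oligodendrocytes were lower in susceptible in 15 of 15, with a median of -0.76. Their summed level ranged from 736.9 to 3176 CPM in susceptible and from 864.6 to 5072 CPM in control. Astrocyte markers were lower in 14 of 15 (median -0.22). With 2 components of the markers of cells other than astrocytes as covariates, the median of the members was 0.26, and none passed after adjustment. Under that fit Scd2 was at 0.19 in place of -0.53. The part of the markers in the difference of Scd2 was not tested.

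In resilient against control NAc, 27 members were lower and 4 higher, with a median of -0.17 beside 0.01 over all genes tested (52.1% higher, 47.9% lower) and -0.18 over the 10696 genes above 2 times the receptor level (23.8% higher, 76.2% lower). None passed and none had an unadjusted p under 0.05 in edgeR (0% and 6.14% of all genes; 11.9% of those above background), and 1 had such a p in DESeq2. Without NAc resilient 1, the highest library of that group for most members, the median was -0.38, and none passed after adjustment. Hmgcs1 (-0.64 ± 0.32), the reductase Dhcr7 that completes cholesterol (-0.29 ± 0.15), Scd2 (-0.78 ± 0.42) and Scd1 (-0.49 ± 0.28) came closest, all with an adjusted p of 0.756. The largest difference upward was that of Mvd (0.14 ± 0.22).

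Astrocyte markers were lower in resilient NAc in 14 of 15 (median -0.59; summed level 1956 to 10863 CPM against 3921 to 11546 CPM in control) and oligodendrocyte markers in 15 of 15 (median -1.05; 656.9 to 2389 CPM). The background was also higher there, with a median of 65.1% against 58.4% in control. With the background as a covariate, 16 members were higher and 15 lower, with a median of 0.01, and with the marker components the median was 0.11. The part of these measures in the difference was not tested.

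Susceptible against resilient NAc gave 30 members higher and 1 lower in susceptible. The median was 0.21, beside 0.02 over all genes tested (53.5% higher, 46.5% lower) and 0.12 over genes above background, of which 77.6% were higher, 22.4% were lower and 2.55% had an unadjusted p under 0.05. Every mevalonate enzyme (7 of 7, median 0.32) and every sterol enzyme (11 of 11, median 0.29) was higher, as were 7 of 7 fatty acid enzymes (median 0.15). None passed in edgeR (0% of genes called), and 2 had an unadjusted p under 0.05, where 2.9% of genes did; DESeq2 had 3 such members. Without NAc resilient 1 the median was 0.42, and none was called.

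Those 2 were Fdps, which makes farnesyl diphosphate (0.43 ± 0.19), and Lss, which closes the sterol rings (0.27 ± 0.13). Hmgcs1 (0.60 ± 0.31) and Mvk (0.31 ± 0.16) followed, and Insig2 had the lowest difference (-0.02 ± 0.11), and the adjusted p was 0.998 for the first 4 of these. Fdps had 4.98, 7.29 and 11.2 CPM as lowest, median and highest in susceptible and 4.58, 5.07 and 8.19 CPM in resilient. Lss had 19.5, 26.6 and 30.3 CPM in susceptible and 17.0, 20.4 and 27.2 CPM in resilient. Both genes overlapped between the groups. With the background as a covariate the median of the 31 was 0.05, with 20 higher and 11 lower. All 15 astrocyte markers (median 0.38) and all 15 oligodendrocyte markers (median 0.24) were also higher in susceptible. These 3 NAc comparisons share their libraries.

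In PFC, 29 of 31 members were higher in susceptible than in control, with a median of 0.37 beside -0.01 over all genes tested (47.5% higher, 52.5% lower) and 0.11 over 12340 genes above background (68.3% higher, 31.7% lower). None was called (0% of 32167 genes), and none had an unadjusted p under 0.05 (0.482% of genes; 0.867% of those above background). Without PFC susceptible 1 the median was 0.15. Acss2, which makes acetyl-CoA from acetate (0.39 ± 0.22), Acly (0.42 ± 0.26), Scd1 (0.63 ± 0.39) and Mvd (0.42 ± 0.26) came closest. Insig1 had the largest difference, 0.69 ± 0.46, and Ebp the lowest, -0.04 ± 0.37. All members named in PFC had an adjusted p of 1 (edgeR). Acss2 had 45.6, 54.8 and 66.6 CPM in PFC control and 47.2, 69.9 and 89.1 CPM in PFC susceptible, as lowest, median and highest, so that the groups overlapped.

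Resilient against control PFC gave 30 members higher and 1 lower, with a median of 0.40 beside -0.02 over all genes (47.4% higher, 52.6% lower; above background 66.6% and 33.4%). None was called in edgeR (0%), and 1 had an unadjusted p under 0.05 (0.597% of genes, 1.05% of those above background; 2 members in DESeq2). That one was Acss2 (0.54 ± 0.23), with 72.0, 137.7, 73.4, 44.0 and 69.3 CPM in the resilient libraries. Acat2 (0.47 ± 0.24), Insig1 (0.91 ± 0.48) and Fdps (0.61 ± 0.37) followed, and Scap was lowest (-0.09 ± 0.22).

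Without the 4 libraries whose background was under 30%, a choice made after seeing the data, that median was -0.02, with 14 higher and 17 lower, and Insig1 was at 0.07. Without PFC resilient 2 alone the median was 0.11, and without PFC resilient 4 alone 0.60, with none called in either. Without the 4 libraries of low background the susceptible difference in PFC had a median of 0.29 with 28 of 31 higher. Astrocyte markers were higher in 15 of 15 in both stress groups (medians 0.73 and 0.72; summed level 1839 to 18278 CPM in susceptible, 2599 to 23774 in resilient and 2393 to 9148 in control). Their part in the differences was not tested.

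Between susceptible and resilient PFC, 14 members were higher and 17 lower in susceptible, with a median of -0.07, none called (0% of genes) and none at an unadjusted p under 0.05 (0.572%; 0.665% of genes above background). Over all genes 50.1% were higher and 49.9% lower, and above background 48.6% and 51.4%. The smallest p-values were those of Ebp (-0.56 ± 0.39), Fdps (-0.41 ± 0.38), Acat2 (-0.23 ± 0.25) and Hsd17b7 (-0.20 ± 0.25). Cyp51, the sterol demethylase, had the largest difference upward (0.18 ± 0.41). Without the libraries of low background the median was 0.32, with 27 members higher, and it ran from -0.25 without PFC susceptible 1 to 0.28 without PFC resilient 2.

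**Figure D2:**
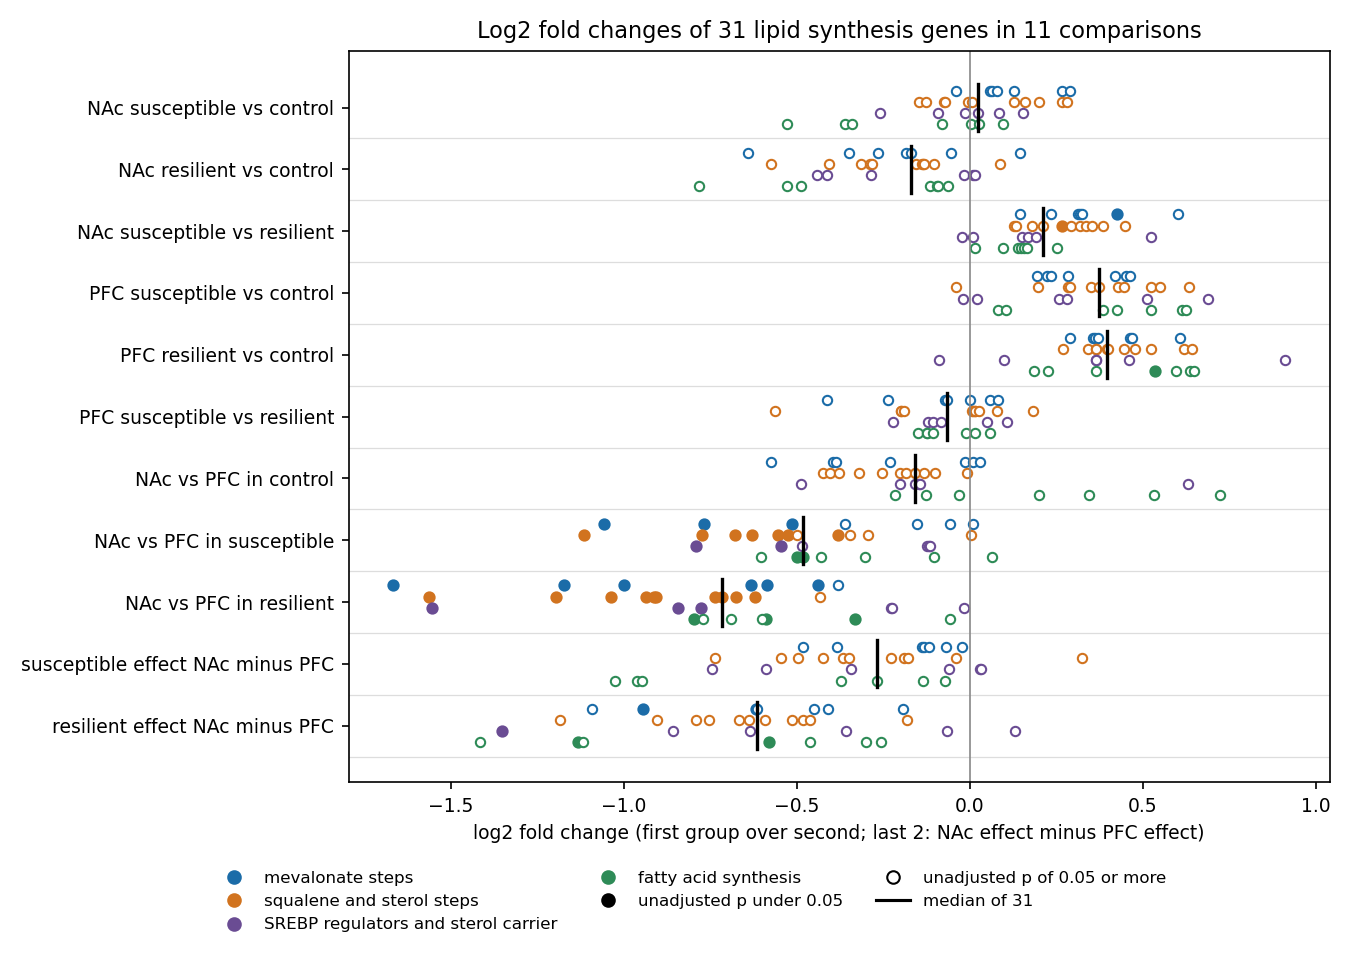
Log2 fold change (x axis) of each of the 31 genes in the 11 comparisons (y axis), by role; filled points have an unadjusted p under 0.05 in edgeR's quasi-likelihood test and the bar is the median of the 31 genes. No gene passed at an adjusted p under 0.05; most filled points, 22 and 14, lie in the resilient and susceptible comparisons of NAc with PFC.

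The regions were compared within each condition, in 1 unpaired fit of all 39 libraries. In control mice, 24 members were lower and 7 higher in NAc than in PFC, with a median of -0.16 beside -0.02 over all genes; none was called (0.00262% of 38171 genes), and none had an unadjusted p under 0.05 (5.04%, and 7.14% of genes above background; 1 member in DESeq2). Over all genes 45.6% were higher and 54.4% lower, and above background 43.3% and 56.7%. The roles split. All 11 squalene and sterol enzymes were lower in NAc (median -0.20), while 4 of 7 fatty acid enzymes were higher (median 0.20).

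Stard4 (-0.49 ± 0.24), Srebf1 (0.63 ± 0.33), Mvd (-0.39 ± 0.24) and Acaca, acetyl-CoA carboxylase (0.20 ± 0.13), had the smallest p-values. Scd2 had the largest difference (0.72 ± 0.49) and Hmgcs1 the lowest (-0.57 ± 0.44). Oligodendrocyte markers were higher in control NAc in 15 of 15 (median 0.76) and neuronal markers lower in 10 of 12 (median -1.15), and their part was not tested.

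In susceptible mice 28 members were lower in NAc than in PFC (median -0.48; all genes 0.03, with 53.2% higher and 46.8% lower; above background 28.6% and 71.4%). None was called in edgeR (0.00262% of genes), and 14 had an unadjusted p under 0.05, in DESeq2 too, where 6.23% of all genes did and 10.4% of those above background. Acss2 had the smallest p (-0.48 ± 0.16), followed by Acly (-0.50 ± 0.20), Msmo1 (-1.11 ± 0.44) and Dhcr7 (-0.52 ± 0.21), all with an adjusted p of 0.718. Msmo1 was also the lowest of the members, and Acaca the highest (0.07 ± 0.13). With the background as a covariate the median was -0.08 and 2 members had such a p, and without PFC susceptible 1 it was -0.30 with 1 such member.

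The widest gap was in resilient mice: all 31 members were lower in NAc than in PFC, with a median of -0.71 beside 0.06 over all genes tested (54.4% higher, 45.6% lower) and -0.32 over the 12863 genes above background (27.5% higher, 72.5% lower). In edgeR 0 of 31 members were called (0% of genes), while 22 had an unadjusted p under 0.05, where 14.6% of all genes and 26.5% of those above background did. All 11 sterol enzymes but 1 were among the 22 (10 of 11), as were 6 of 7 mevalonate enzymes, 3 of 6 regulators and 3 of 7 fatty acid enzymes. Acss2 had the smallest p (-0.80 ± 0.17, adjusted p = 0.173), followed by Fdps (-1.17 ± 0.30), Sqle, the epoxidase that oxygenates squalene (-1.20 ± 0.33), and Insig1 (-1.55 ± 0.42). Hmgcs1 had the lowest difference (-1.67 ± 0.46) and Scap the highest (-0.02 ± 0.17), and Scap turned to 0.21 with the background as a covariate.

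Acss2 in NAc resilient had 40.5, 44.2 and 54.3 CPM as lowest, median and highest, and the PFC resilient values given above include 1 library, resilient 4, inside that range. Sqle had 14.5, 17.9 and 40.3 CPM in NAc resilient and 51.1, 116.1, 33.4, 22.9 and 28.5 CPM in PFC resilient. For both, the groups overlapped, and PFC resilient 2 was highest. In the NAc resilient libraries Acss2 lay at 0.99 to 1.94 times the receptor level, close to the background.

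This regional result depended on the model and on a few libraries. DESeq2 called 4 members (Acss2, Hmgcs1, Sqle and Msmo1) among 55 genes. Without PFC resilient 2, 8 members had an unadjusted p under 0.05 and the median was -0.43. Leaving out PFC resilient 4 gave 4 called members (Acss2, Fdps, Hsd17b7 and Insig1). The shares of all genes in these left-out fits are not given here.

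Without the 4 libraries of low background, 2 of which are PFC resilient, the median difference was -0.19, 2 members had an unadjusted p under 0.05 and none was called. Hmgcs1 was then at -0.72 and Insig1 at -0.60. With the background as a covariate the median was -0.26, and with the marker components -0.34. Astrocyte markers were lower in NAc in 15 of 15 (median -1.14), a larger median than that of the members, and neuronal markers in 10 of 12 (median -1.03).

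Whether stress acted differently in the 2 regions was tested with an interaction term. No member passed for the susceptible effect (0% of 38171 genes called; 0 members and 1.38% of genes at an unadjusted p under 0.05; DESeq2 1 member). The NAc effect was below the PFC effect for 28 members (median -0.27; over all genes 55.7% above 0 and 44.3% below, and above background 34.7% and 65.3%, with 1.8% at such a p), with Scd1 (-0.96 ± 0.48), Srebf1 (-0.75 ± 0.45), Fasn (-0.95 ± 0.61) and Nsdhl (-0.55 ± 0.36) closest to the threshold. Scd2 was lowest (-1.02 ± 0.67) and Ebp highest (0.32 ± 0.41).

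For the resilient effect 0 members were called (0%) and 5 had an unadjusted p under 0.05 (3.45% of genes; 10 members in DESeq2). The NAc effect was below the PFC effect in 30 of 31 members, with a median of -0.61 beside 0.07 over all genes (56% above 0, 44% below; above background 30.9% and 69.1%, with 5.79% at such a p). Without PFC resilient 2 no member had such a p. With each library left out in turn the median ran from -0.80 to -0.36, and no member was called. Acss2 (-0.58 ± 0.24), Acat2 (-0.62 ± 0.27), Fdps (-0.94 ± 0.41) and Insig1 (-1.35 ± 0.59) had the smallest p-values, each with an adjusted p of 0.849. Scd2 was lowest (-1.41 ± 0.70) and Scap highest (0.13 ± 0.23). The median was -0.17 without the 4 libraries of low background. With the marker components it was -0.04, and Scd2 turned to 0.06.

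Srebf1 relative to Srebf2 had a higher mean in NAc than in PFC in each of the 3 conditions, and in resilient mice that difference passed an exact test, though not in every subset of the libraries. The ratio of their counts within a library does not depend on scaling. It was examined, with Scd1 to Scd2 and Insig1 to Insig2, after Srebf1 was seen to lie against the other members in control mice, so its values in control mice are a description with no test. Srebf1 spans chr11:60199089-60222581 on the minus strand and Srebf2 chr15:82147181-82205379 on the plus strand, and their whole-span counts are compared.

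In control mice the log2 ratio of Srebf1 to Srebf2 was -0.52 ± 0.29 (SD, n = 7) in NAc and -1.19 ± 0.25 (SD, n = 6) in PFC. The difference was 0.66. The NAc values ran from -0.92 to -0.14 with a median of -0.57 and the PFC values from -1.59 to -0.89 with a median of -1.19, so that 1 library at the edge of each group overlapped.

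In resilient mice the ratio was -0.66 ± 0.24 (SD, n = 7) in NAc and -1.15 ± 0.17 (SD, n = 5) in PFC, a difference of 0.49 (two-sided exact permutation p = 0.00126, adjusted p = 0.0236 over 27 tests of 3 ratios in 9 comparisons). The groups did not overlap: the lowest NAc library was at -0.85, and the PFC libraries were at -1.36, -0.98, -0.98, -1.17 and -1.26. That p is the smallest the 792 arrangements allow. These arrangements treat the NAc and PFC libraries as unpaired, and whether some share a mouse is not known. The comparison in control mice, which prompted the choice of ratio, is among the 27 and lowers the adjusted p of the others. The ratios were chosen after seeing the data, so the tests in resilient and susceptible mice were not planned ahead either. In susceptible mice the ratio was -0.65 ± 0.14 (SD, n = 8) against -0.97 ± 0.22 (SD, n = 6), a difference of 0.32 that did not pass after adjustment (exact permutation p = 0.00766, adjusted p = 0.0689).

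With each of the 39 libraries left out in turn the direction stayed, with a difference of 0.58 to 0.73 in control, 0.28 to 0.38 in susceptible and 0.43 to 0.53 in resilient mice. In resilient mice the call was lost without PFC resilient 1 (exact permutation test, adjusted p = 0.0818). In susceptible mice a call was gained without PFC susceptible 5 (0.38, adjusted p = 0.021). Without the 4 libraries of low background the differences were 0.58, 0.28 and 0.48 in control, susceptible and resilient mice, and neither of the latter passed (adjusted p = 0.15 for both). Smaller groups leave fewer arrangements and raise the smallest p the exact test can give. Not passing in these subsets therefore does not decide whether the difference rests on the libraries left out. After subtracting the count that each library's receptor level predicts, they were 0.77, 0.40 and 0.69, with an adjusted p of 0.03 in susceptible and in resilient mice.

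Snap25 also differed between the regions, with 47.6 to 684.9 CPM in the 17 PFC libraries and 35.5 to 94.6 CPM in the 22 NAc libraries, and its part in the ratio was not tested. No ratio differed between conditions within a region after adjustment. The smallest such p was that of Insig1 to Insig2 in susceptible against resilient NAc (difference 0.65, exact permutation p = 0.0452, adjusted p = 0.244), and the ratio of Scd1 to Scd2 passed in no comparison.

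**Figure D3:**
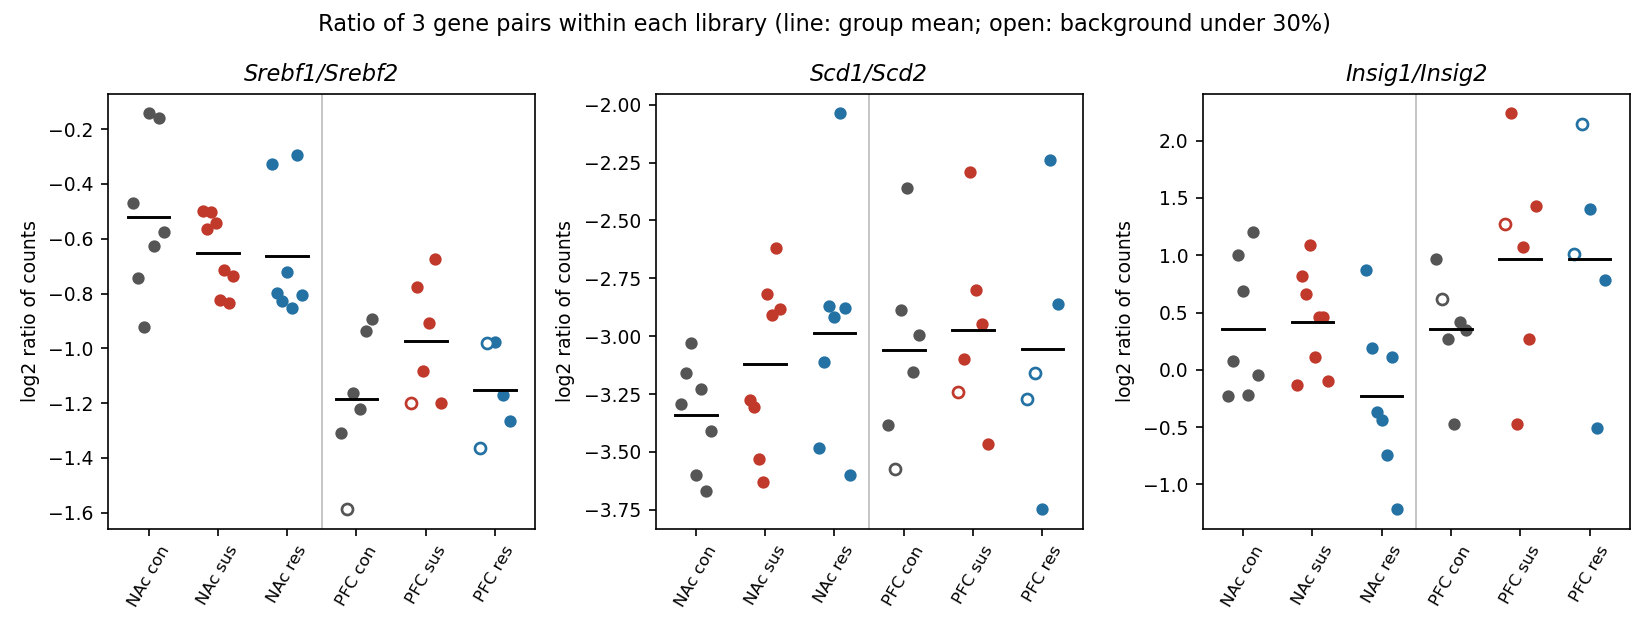
Log2 ratio of counts (y axis) of Srebf1 to Srebf2, Scd1 to Scd2 and Insig1 to Insig2 within each library, by group; lines are group means and open circles are libraries with a background under 30%. For Srebf1 to Srebf2 the NAc means lie between -0.66 and -0.52 and the PFC means between -1.19 and -0.97.

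The members varied together from library to library, after the group means were subtracted. Over the 465 pairs of members the median correlation of log2 CPM was 0.70 across the 39 libraries, and 371 pairs were above 0.5. The points share library and depth, and no test is attached. Among the closest pairs were Srebf1 with Fasn (0.96), Scd2 with Fasn (0.96), Fdft1 with Acly (0.96), Hmgcs1 with Msmo1 (0.95) and Hmgcs1 with Insig1 (0.95). Fatty acid enzymes had a median of 0.87 among themselves, sterol enzymes 0.78, mevalonate enzymes 0.55 and regulators 0.53.

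The members least like the rest were Ebp (median 0.23 with the other members), Insig2 (0.46), Mvk (0.48), Stard4 (0.49) and Scap (0.55). Ebp, Insig2 and Stard4 are also among the members close to the background. In the 35 libraries with a background of 30% or more the median over pairs was 0.61, and with the background also regressed out it was 0.51. The same measure was 0.39 for 30 genes of sterol handling outside the members, 0.17 for 38 of fatty acid handling, 0.95 for the astrocyte and 0.94 for the oligodendrocyte markers.

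**Figure D4:**
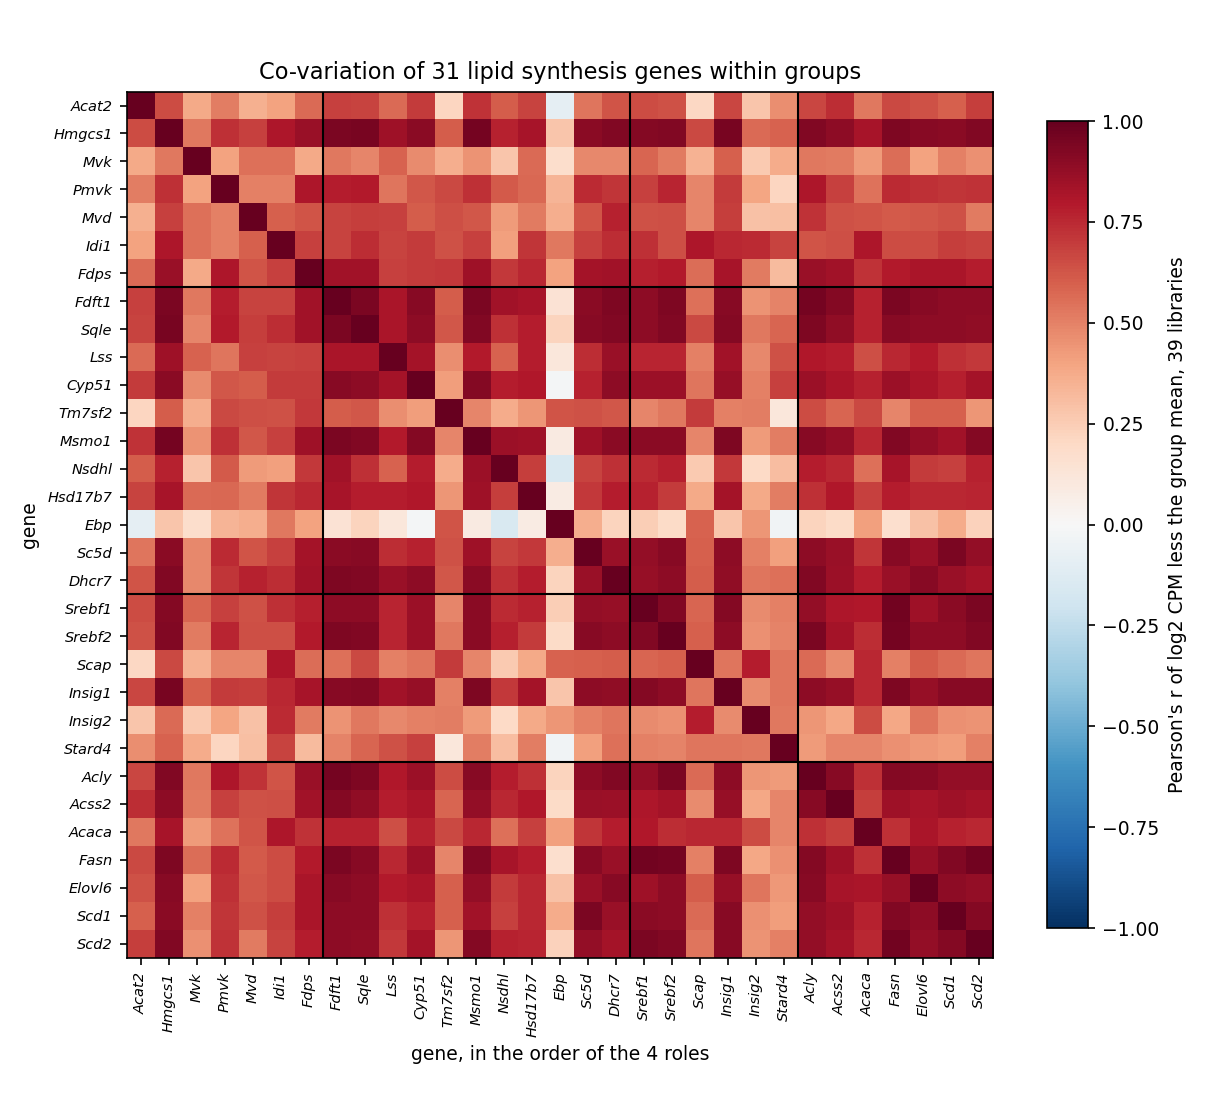
Pearson's r (colour) between each pair of the 31 genes, in the order of the 4 roles on both axes, from log2 CPM less the group mean over 39 libraries. Most pairs are above 0.5 and the row of Ebp is palest, with a median of 0.23.

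What the members moved with was measured over the same 39 libraries, again less the group means. Against the mean log2 CPM of the 15 astrocyte markers the median r over the 31 members was 0.86, and it was positive for all of them. For Fasn, Pearson's r was 0.97 and Spearman's rho 0.96 (permutation p = 1e-05 for both, the smallest 100000 permutations can give; adjusted p = 1.94e-05 for r over 93 relations), and r was 0.97 without the 2 most distant libraries. Within regions it was 0.96 in NAc and 0.98 in PFC.

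Ebp had r = 0.10 with the astrocyte markers (rho = 0.20; permutation p = 0.665 and 0.236). Against the oligodendrocyte markers the median was 0.64, and Scd2 had the highest r, 0.89 (rho = 0.91, permutation p = 1e-05). Against the background the median was -0.73, with all 31 negative and 30 passing after adjustment (permutation test). For Hmgcs1 this r was -0.79 (rho = -0.74, permutation p = 1e-05 and 3e-05), -0.71 without the 2 most distant libraries, -0.56 within NAc and -0.87 within PFC. Lists, members and background are counted in the same libraries. The background is a share of a library's cover, so genes above it tend to have fewer CPM where it is higher. The permutation test against the background therefore cannot tell the members from other such genes. These relations to markers and background were measured for the members only. No share over all genes stands beside the counts, so they are not shown to be particular to these genes.

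**Figure D5:**
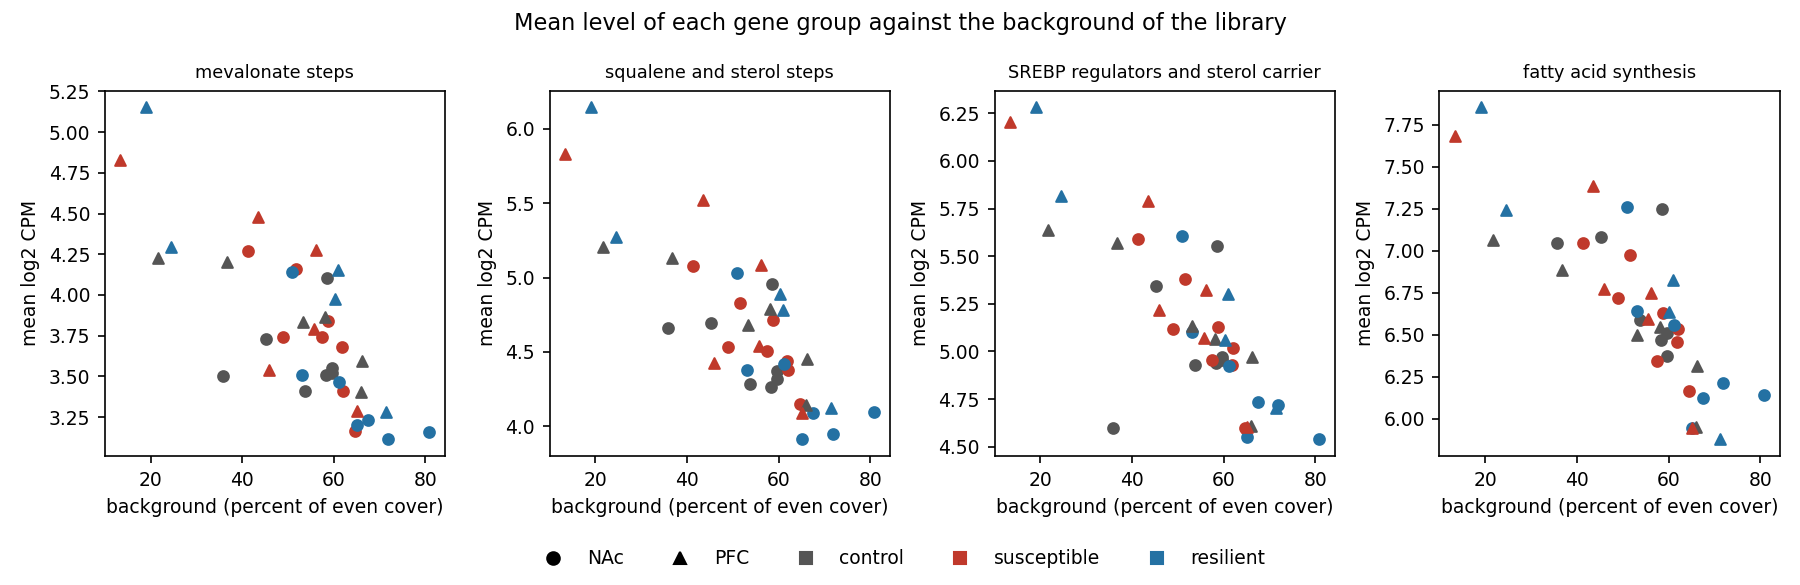
Mean log2 CPM of the genes of each role (y axis) against the background of the library in percent of even cover (x axis), for 39 libraries by region and condition. The level is lower at higher background in all 4 panels, and the 4 PFC libraries under 30% are at the upper left.

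Of 30 genes of sterol handling outside the members and 38 of fatty acid handling, none was called by edgeR in any of the 11 comparisons. In resilient NAc against control, 27 of 30 and 30 of 38 were lower (medians -0.17 and -0.18), beside 76.2% of genes above background, whose median was -0.18. The smallest p-values were those of Npc1, which exports cholesterol from lysosomes (-0.50 ± 0.19), and the oxysterol-binding protein Osbp (-0.39 ± 0.15). Of the fatty acid list, Fads6 (-0.31 ± 0.15) and Hacd3 (-0.56 ± 0.27) came first. In susceptible NAc, Abcg1, a sterol exporter, was at -0.27 ± 0.12 and Osbp at -0.32 ± 0.15.

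Elovl2, which lengthens polyunsaturated fatty acids, was at 0.44 ± 0.20 in susceptible PFC. Between regions in resilient mice, 28 of 30 sterol handling genes and 29 of 38 fatty acid handling genes were lower in NAc (medians -0.34 and -0.36), beside 72.5% of genes above background, whose median was -0.32. Fads6 was at -0.51 ± 0.18 there. Abca1, which loads cholesterol onto lipoproteins, went the other way in control mice, at 0.62 ± 0.22 in NAc over PFC (adjusted p = 0.444, edgeR).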

How the data were processed

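RNA of 39 ACSA-2-captured samples was sequenced from 500 pg of total RNA with a stranded low-input kit, per the labels' protocols. The authors deposited counts per gene and FPKM per gene for the whole series; featureCounts and mm10 are named in the submitters' processing notes, the aligner is not given in the sources used here, and how strand was counted is not stated. The deposited counts and FPKM values cover whole gene spans, as found from their ratio.

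The members follow a rule on gene names; that rule, the gene lists and the tests were set with earlier results of these data known. Counts were fitted with edgeR 4.0.16 (TMM, filterByExpr, quasi-likelihood, robust; R 4.3.3), per region for conditions and over all libraries for regions and interactions, with Benjamini-Hochberg adjustment over all genes tested and calls at 0.05. The whole-table scripts were tested on simulated data. CPM are from these scaled libraries and log2 CPM use a prior count of 2. Alternatives used DESeq2 1.42.0 and limma 3.58.1 (the latter also on log2(FPKM + 0.5)), other scaling and filters, covariates and left-out libraries. Shares over all genes are given for the main edgeR fits, and counts of members under most alternatives stand without them. All 31 members passed the count filter in each fit.

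Group and replicate come from each library's own name in the labels. Separate mouse numbers are given, but whether a mouse gave both regions is not, so p-values measure the spread between these libraries. By the number in its title, every PFC library is odd and every NAc library even. A PFC library and the NAc library numbered next after it, where present, always share a condition. Such neighbours could come from the same mouse, which is not stated. The main fits and the exact tests of ratios took libraries as unpaired. Consecutive numbers were taken as pairs in an alternative fit only. Apart from an alternative fit with the replicate number as a block, libraries of the same replicate number were taken to share only a number. The background nevertheless followed that number in PFC. Replicates 1 and 2, which carry the lowest PFC title numbers, had 13.4% to 43.5% and the later PFC libraries 45.9% to 71.3%. The main fits and the exact tests leave this order out, and its part in the results was not tested. Genes named in each comparison are the 4 members with the smallest unadjusted p and those with the largest and smallest log2 difference; per-library values are given for the highest 2 members of each role and some of those. Of each outside list, up to 2 genes with the smallest p were eligible and some of these are named, while a few genes outside the members are not reported here. Group means of the remaining members are given as their range over the 6 groups. The 3 ratios, the low-background subset and the background subtraction were chosen after seeing the data.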

Additional observations from a re-analysis of the deposited data

Results flagged for a closer look

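Within each group and gene, a library that stood apart from the rest was looked for with Dixon's ratio (the gap to the nearest library over the group's range, 95% level). Of 186 sets of values 16 stood out (8.6%, where chance gives about 5%), and genes of a library are not independent. NAc resilient 1 was highest by such a gap in 8 genes: Idi1 at 17.2 CPM, Fdft1 at 97.7, Sqle at 40.3, Cyp51 at 52.7, Srebf1 at 137.9, Srebf2 at 173.1, Fasn at 224.2 and Scd2 at 771.2 CPM. The group medians were 6.53 CPM for Idi1, 51.2 for Fasn and 206.1 for Scd2. NAc control 6 was highest in 4 genes, Hmgcs1 at 73.1, Cyp51 at 51.7, Msmo1 at 129.8 and Acaca at 316 CPM. NAc control 3, the library with the lowest total, was highest for Pmvk at 26.9 and Tm7sf2 at 11.8 CPM and lowest for Stard4 at 2.15 CPM. PFC resilient 2 was highest for Cyp51, at 110.8 CPM against a next value of 43.8 CPM.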

How the results depend on the processing

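The count of called members was 0 in edgeR for all 11 comparisons and stayed so under the alternatives run, except NAc against PFC in resilient mice: 4 with DESeq2, 6 with the replicate number as a block, and 0 to 4 with 1 library left out; the block changed no other call of a member. The 6 were Acss2, Sqle, Stard4, Fdps, Hsd17b7 and Hmgcs1 (adjusted p 0.0144 to 0.0498). The shares of all genes called with the block and in the left-out fits are not given here. The number is not known to pair libraries: deviations of same-numbered PFC libraries correlated above 0.1 in 6 of 6, 5 of 5 and 5 of 5 pairs over genes above a log2 CPM of 3 but in 5 of 6, 5 of 5 and 4 of 5 above 1 (lowest r 0.149 and 0.0251), not every library was closest to its own number, and in NAc 5, 2 and 4 of 7 pairs passed 0.1 at the former level. Over genes above a log2 CPM of 3, r ran from 0.149 to 0.728 for PFC control with susceptible and from 0.416 to 0.926 for control with resilient. For PFC susceptible with resilient it ran from 0.234 to 0.812. Closest to their own number were 4 of 12, 4 of 10 and 5 of 10 libraries in the same order. A shared block in PFC was not tested, although PFC replicates 1 and 2 had a lower background than the later PFC libraries. Between regions in resilient mice, the median of the members moved to -0.265 with the background as a covariate and to -0.193 without the 4 libraries of low background. The median of the resilient effect, NAc minus PFC, moved to -0.0355 with marker components. Without the libraries of low background the Srebf1 to Srebf2 difference was 0.584 in control mice and 0.477 in resilient mice. In resilient mice it then no longer passed, with fewer arrangements left for the exact test. On counts above background it passed in susceptible mice (0.403). With 1 library left out it ran from 0.584 to 0.731 in control, 0.429 to 0.534 in resilient and 0.276 to 0.381 in susceptible mice.

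Some named members, none called, changed sign. With marker components Scd2 was at 0.185 in susceptible NAc, Scd1 at 0.10 in resilient NAc and Scd2 at 0.0614 for the resilient effect between regions. With limma-voom Mvd was at -0.0121 in resilient NAc and Fdps at 0.167 in susceptible against resilient PFC. The block put Insig2 at 0.0197 in susceptible against resilient NAc. Without the 3 libraries of lowest total Ebp was at 0.115 in susceptible PFC, Cyp51 at -0.0625 in susceptible against resilient PFC and Scap at -0.0137 for the resilient effect between regions. Without the libraries of low background Fdps was at -0.0201 in resilient PFC and 0.0296 in susceptible against resilient PFC. Scap, near 0 between regions in resilient mice, was at 0.205 with the background as a covariate, 0.095 with consecutive numbers as pairs, 0.15 with limma-trend, 0.0888 with limma-voom, 0.296 with marker components, 0.0549 with the block and 0.183 without the libraries of low background. With 1 library left out the ranges that crossed 0 were Mvd -0.00971 to 0.257 in resilient NAc, Insig2 -0.0705 to 0.0225 in susceptible against resilient NAc, Ebp -0.216 to 0.114 in susceptible PFC and Scap -0.187 to 0.0443 in resilient PFC. In susceptible against resilient PFC they were Fdps -0.667 to 0.00208, Acat2 -0.381 to 0.0398 and Cyp51 -0.00123 to 0.727. Scap ran from -0.0785 to 0.0716 between regions in resilient mice and from -0.0352 to 0.204 for the resilient effect. The cause was not tested for any of these. Counts per library were lowest for Ebp (median 50) and Mvd (median 71).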
